A study of Homo sapiens with 6 samples.

Results

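Among the 6 libraries of SACC-83 RNA sequenced, 2 carry the replicate number 2, vector 2 and overexpression 2, and they were set against the 4 numbered 1 and 3. SACC-83 is an established human line labelled as salivary adenoid cystic carcinoma cells. The 3 vector libraries carry the genotype label WT, and the 3 overexpression libraries come from cells overexpressing circMYBL1, a circular RNA of the MYBL1 gene, as the design text has it. The genotype labels of the overexpression libraries read circMYBL1, circMYBL2 and circMYBL3 for numbers 1, 2 and 3, so each library of that group carries a name of its own. No label gives a time, dose, clone or culture day, and none says what a replicate number stands for or that libraries came from separate cultures. The p-values therefore measure only how these libraries vary, possibly for technical reasons, and the number cannot be told apart from anything else that the 2 libraries shared.

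Stratified epithelia, such as those lining the mouth and the larger salivary ducts, hold dividing basal cells anchored to a basement membrane and suprabasal cells that stop dividing, change their keratins, strengthen desmosomes and acquire an apical surface with mucins, channels and proteases. Cultured carcinoma cells of epithelial origin can carry parts of this programme, and sparse, growing cultures commonly express growth, immediate early and wound-type genes more than crowded ones. These points are background and were not measured here.

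Values are FPKM, that is, fragments relative to gene length and to the library total. Differences are those of log2(FPKM + 1) between number 2 and numbers 1 and 3 with the group held constant, which understates the change of genes near 0. A gene was called at a limma adjusted p under 0.05. Because only 2 libraries stand against 4, an exact test of a single gene that ignores the group cannot go below 0.0667. An exact test within groups has a higher floor, and every call rests on the spread shared across genes. The authors' values give no read counts, so no depth and no counting error can be stated.

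The number 2 libraries resembled each other closely. Across the 12064 genes kept (those reaching 1 FPKM in 3 or more libraries), Pearson's r of log2 values was 0.989 between vector 2 and overexpression 2, 0.978 to 0.990 among the 4 others, and 0.915 to 0.957 between a number 2 library and any of the 4. Summed FPKM ran from 371776 to 408826, and the number 2 libraries had the 2 lowest sums. They also had the most loci at FPKM of at least 1, 12577 and 12573 against 11606 to 11958. Mitochondrial transcripts held 10.2% of summed FPKM in vector 2 and 8.43% in overexpression 2, against 5.64% to 8.76% in the others. The part of these differences in the results was not tested. MYBL1, the host gene, stood at 9.04, 7.15 and 10.3 FPKM in vector 1, 2 and 3 and at 359, 44.0 and 2025 in overexpression 1, 2 and 3. The gene's value cannot separate circular from linear reads. It was lowest of its group in overexpression 2, and its difference of -2.32 (adjusted p = 0.0383) came to -0.39 with adjusted p = 0.70 without that library.

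Of the 12064 genes, 4887 were called (40.5%), 2859 higher (23.7%) and 2028 lower (16.8%) in the number 2 libraries. A difference of at least 2-fold was called for 851 (7.05%), 589 higher (4.88%) and 262 lower (2.17%). Both number 2 libraries lay above all 4 others for 4326 genes (35.9%) and below them for 3102 (25.7%). Under quantile normalization the calls were 2309 higher and 2555 lower, so the split between directions depends on the scaling. Without vector 2 the number of calls was 1255 and without overexpression 2 it was 2468, since 1 number 2 library then remains. All counts of gene groups below are to be read against these shares. A gene can pass the filter through the number 2 libraries, so counts called higher are partly set by it.

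The difference was measured separately in the vector and the overexpression libraries, which share no library. Over the kept genes the 2 differences had Pearson's r 0.881, a description across genes, which are not independent. They had the same sign for 10310 genes (85.5%). The overexpression difference was the smaller, with a slope of 0.75 on the vector difference and an SD of 0.53 against 0.62. At least 2-fold in both groups were 424 genes in the higher direction and 161 in the lower, and 6 genes were 2-fold in opposite directions. A test of the difference between the groups called 1 of 12064 loci (0.00829%), while 140 passed an unadjusted p of 0.05 (1.16%). The share of 1.16% is below the 0.05 that no difference would give, and each group holds 1 number 2 library. The few calls therefore do not show that the groups agree.

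**Figure D1:**
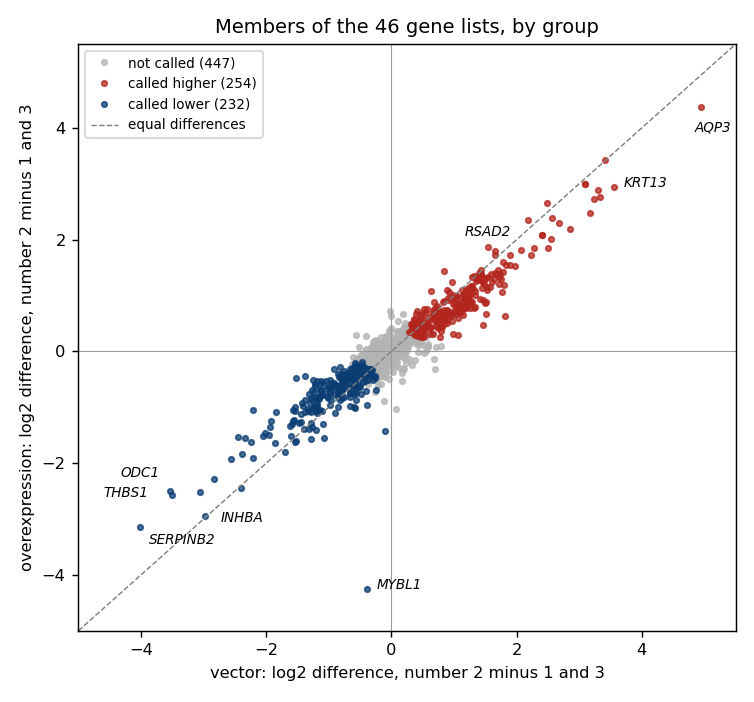
Difference between number 2 and numbers 1 and 3 in vector (x axis) and overexpression libraries (y axis), in log2(FPKM + 1), for the 933 kept members of 46 gene lists. Each point is a gene, red if called higher (254), blue if called lower (232) and grey if not called (447), and most points lie along the dashed line of equal differences, MYBL1 being far from it.

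AQP3, a channel for water and glycerol in the membranes of stratified epithelia, had the largest difference of the genes named by the rule. It stood at 202 FPKM in vector 2 and 132 in overexpression 2, against 3.10 and 9.48 in vector 1 and 3 and 4.67 and 6.15 in overexpression 1 and 3 (difference 4.67, SE 0.30, adjusted p = 2.02e-05). KRT13, the keratin of suprabasal cells in moist mucosa, stood at 195 and 111 FPKM in the number 2 libraries and at 9.53, 25.7, 11.1 and 16.7 in vector 1, vector 3, overexpression 1 and overexpression 3 (3.24, SE 0.31, adjusted p = 0.000106). In the same order LY6D, a surface protein anchored by a lipid tail in squamous epithelium, stood at 121 and 84.2 against 7.59, 14.3, 5.85 and 8.08 (3.42, SE 0.21, adjusted p = 1.67e-05). The number 2 libraries did not overlap the others, which the rule for naming the largest differences required, and in both groups library 3 stood above library 1.

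SERPINB2, an inhibitor of the plasminogen activator urokinase, stood at 17.4 FPKM in vector 2 and 31.4 in overexpression 2, against 311, 286, 286 and 284 in vector 1, vector 3, overexpression 1 and overexpression 3 (difference -3.58, SE 0.17, adjusted p = 8.19e-06). THBS1, the secreted matrix protein thrombospondin 1, stood at 23.3 and 42.2 against 341, 220, 266 and 243 (-3.03, SE 0.22, adjusted p = 3.36e-05). The 4 other libraries lay close together for both genes, and each number 2 library was far below them. In GRCh38, as annotated in GENCODE 29, AQP3 lies at chr9:33441154-33447633, KRT13 at chr17:41500981-41505705, LY6D at chr8:142784880-142786592, SERPINB2 at chr18:63871692-63903890 and THBS1 at chr15:39581079-39599466, and the values are per gene over all its exons.

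**Figure D2:**
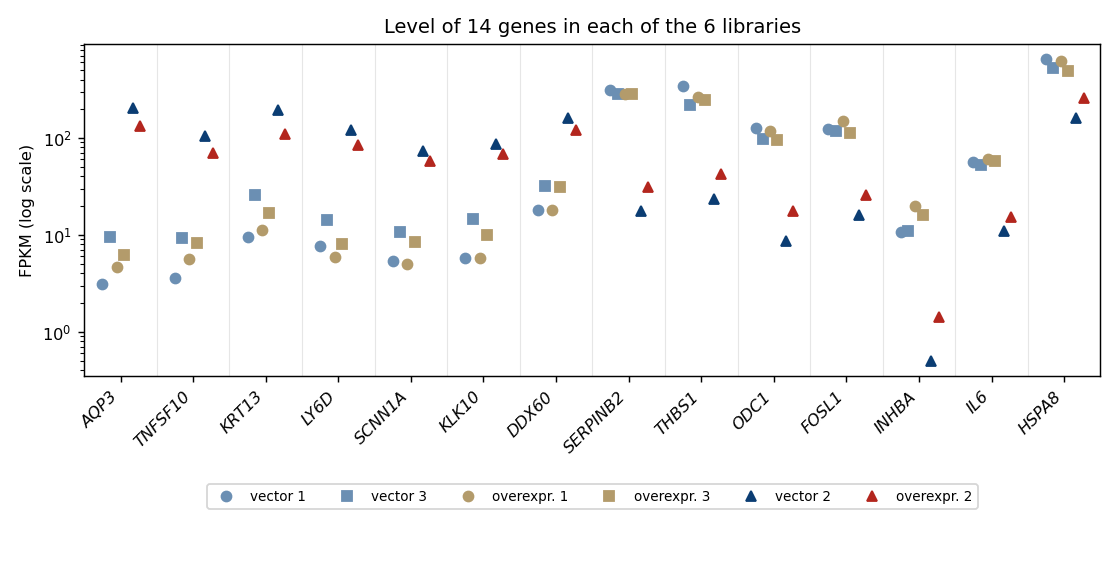
FPKM on a log scale of 14 genes, chosen for display from those described in the text. Circles and squares are the number 1 and number 3 libraries, triangles the number 2 libraries, blue for vector and brown or red for overexpression. The 2 triangles lie above all other points for the 7 genes at the left and below them for the 7 at the right, as AQP3 at 202 and 132 against 3.10 to 9.48.

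Genes of the apical surface, mucins and channels were the list with the largest median, 1.21 on the log2 scale against 0.07 for all kept genes. The list was detected in part. It holds 41 genes, of which 22 were not kept, 19 of them below 1 FPKM in every library and 6 listed at 0 throughout. MUC4 and TMPRSS4 were left out although they reached 1 FPKM in both number 2 libraries. Of its 19 kept members, 16 were called higher and 1 lower, and 10 were called higher without vector 2. PSCA, a small surface antigen with a lipid anchor whose exons overlap those of JRK on the other strand, stood at 114 and 79.5 FPKM in the number 2 libraries against 7.14 to 15.7 in the 4 others (difference 3.09). SCNN1A, a subunit of the epithelial sodium channel, stood at 72.6 and 58.4 against 4.96 to 10.7 (3.04). MUC1, a mucin that spans the membrane, stood at 98.5 and 73.1 against 4.78 to 18.5 (2.98). Also called higher were WFDC2 (2.26), a secreted protein with an antiprotease fold, the mucin MUC16 (1.57), and the membrane proteases PRSS8 (1.35) and ST14 (1.21), which are known to act in one cascade. GPRC5A, an orphan receptor of airway and oral epithelium, was the member called lower (-0.38), and 8 of the alternatives ended that call.

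The suprabasal and cornified envelope list was detected in part. Of 59 genes listed, 22 were kept, 12 were called higher and 2 lower, and the median difference was 0.68. Without vector 2, 9 were called higher. Transglutaminase TGM1 (1.53), which crosslinks the envelope, the lipid transporter ABCA12 (1.42), the envelope plakin PPL (1.40) and the matrix protein ECM1 (0.98) were called higher, PPL and ECM1 not without vector 2 (adjusted p = 0.066 and 0.058). Of the 37 genes that were not kept, 30 were below 1 FPKM in every library and 11 were listed at 0 in all of them. Below 1 in every library were the envelope precursor IVL, the late keratins KRT1 and KRT2, the keratin KRT4, and LORICRIN, SPRR1A, SPRR3, CRNN and TGM3. KRT10, the partner of KRT1, stood at 4.04 and 3.07 FPKM in the number 2 libraries and at 2.95 to 8.20 in the others, which overlap. KRT80 (-0.90) and DMKN (-0.66), both of the suprabasal layers, were called lower, and neither was called without vector 2 (adjusted p = 0.078 and 0.13). The libraries thus carried KRT13, LY6D, kallikreins and apical genes at high level beside an envelope set that was mostly near 0, and the label of an epithelial differentiation programme applies to part of the list only.

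Kallikreins, the secreted serine proteases that act on desmosomal proteins as cells are shed, were the genomic cluster with the most uniform difference among kept genes. All 7 kept genes of the cluster on chromosome 19 (chr19:50819148-51084245, GRCh38, GENCODE 29) were called higher, with a median of 2.26, beside 23.7% of all kept genes. KLK5, KLK8 and KLK9 reached 1 FPKM in fewer than 3 of the 4 other libraries. They passed the filter only through the number 2 libraries, so the count of 7 is partly set by the filter. KLK10 stood at 86.2 and 67.9 FPKM in the number 2 libraries against 5.75, 14.6, 5.77 and 10.001 in vector 1, vector 3, overexpression 1 and overexpression 3 (3.04, adjusted p = 0.0001). KLK11 stood at 21.6 and 13.5 against 1.05 to 2.04 (2.82), KLK6 at 41.1 and 27.9 against 5.55 to 10.6 (2.06), and KLK5 at 4.01 and 2.79 against 0.41 to 1.40 (1.36). KLK8 stood at 14.1 and 9.05 against 0 to 1.25 (3.05), but 40.1% of its exon bases are shared with a second annotated gene of the cluster, itself among the 7, so these 2 are uncertain. KLK9 (1.31) was the exception to the separation of libraries, with 1.04 FPKM in vector 2 and 1.17 in vector 3. KLK7 was left out by the filter at 1.15 and 1.11 FPKM in the number 2 libraries and at most 0.07 in the others. KLK14, also left out, stood the other way, at 0.36 and 0.34 against 0.63 to 1.33.

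Other clusters of epithelial genes differed in their counts. In the epidermal differentiation complex on chromosome 1, 34 of 64 genes were listed at 0 in every library, and of 10 kept genes 3 were called higher and none lower. These were the calcium-binding proteins S100A4 (1.70), S100A14 (1.36) and S100A6 (0.54), the last of which was not called without either number 2 library. In the SERPINB cluster on chromosome 18, 2 of 6 kept genes were called higher and 3 lower. SERPINB13 stood at 16.3 and 10.7 FPKM against 0.42 to 3.02 (2.56), and SERPINB3, whose near-identical copy SERPINB4 can share its reads, at 10.4 and 6.22 against 0.45 to 1.32 (2.28). Both are squamous inhibitors of proteases. They stood opposite to their neighbour SERPINB2. SERPINB3 reached 1 FPKM in fewer than 3 of the 4 other libraries and passed the filter only through the number 2 libraries. Type II keratins had 4 of 10 kept genes called higher and 4 lower. KRT6B, 1 of those called higher, passed the filter in the same way, so both counts are partly set by it. In the type I keratin cluster, which holds KRT13, 5 of 8 kept genes were called higher and 1 lower, with a median of 0.90.

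Basal genes were not lower as a group. Of 25 kept members of the basal list, 12 were called higher and 5 lower, with a median of 0.22 (6 called higher without vector 2). KRT5, the basal keratin, stood at 412 and 347 FPKM in the number 2 libraries against 94.9 to 142 in the 4 others (1.72, SE 0.12, adjusted p = 2.54e-05). KRT15 (1.75), KRT14 (1.12), the laminin receptor BCAM (1.70) and TP63 (1.06), the master regulator of basal identity, were also called higher. Among those called lower, LAMB3, a laminin chain of the basement membrane, stood at 215 and 246 against 376 to 584 (-1.0). CAV1, the coat protein of caveolae, was lower as well (-1.07). The keratins of activated and wounded epithelium followed the basal ones. KRT6A stood at 323 and 313 against 86.9 to 106 (1.69), and KRT16 was higher by 1.43. The copies of KRT6 and those of KRT14, KRT16 and KRT17 are near-identical, so their shares are uncertain. Of the simple keratins, KRT7 stood at 234 and 304 against 428 to 679 (-0.92, not called without vector 2, adjusted p = 0.059).

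Desmosomes, the junctions that tie keratin filaments between cells, had 8 of 11 kept genes called higher, 5 without vector 2, and none lower, with a median of 0.70. Of the 4 genes not kept, the cadherins DSC1, DSG1 and DSG4 were listed at 0 in every library. DSC2 stood at 1.30 and 1.05 FPKM in the number 2 libraries against 0.32 to 0.72 in the others. PERP, a desmosomal membrane protein, stood at 193 and 164 FPKM against 64.5 to 73.3 (1.34). The cadherins DSG3 (1.6) and DSC3 (1.23), the plaque proteins PKP1 (1.38), DSP (0.98) and JUP (0.70) were called higher too, JUP not without vector 2 (adjusted p = 0.096). Of tight and adherens junction genes, 11 of 25 were called higher, 6 without vector 2, and none lower, with a median of 0.37. CLDN1, a sealing claudin, stood at 25.2 and 21.3 against 7.67 to 11.3 (1.20). NECTIN4 (1.69), NECTIN1 (1.21), CLDN7 (1.01) and E-cadherin CDH1 (0.85) were also higher, CDH1 not being called without vector 2 or without overexpression 2 (adjusted p = 0.064 and 0.056).

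Transcription factors of epithelial differentiation held 9 of 19 called higher and 3 lower, with a median of 0.44 and 4 called higher without vector 2. ELF3, an ETS factor of differentiated epithelium, stood at 26.8 and 17.2 FPKM against 1.80, 4.34, 2.27 and 3.94 (2.51, SE 0.27, adjusted p = 0.000161). KLF4, needed for epidermal differentiation, stood at 86.0 and 78.4 against 32.6 to 44.2 (1.1). SOX9, a progenitor factor of ducts, was lower (-1.12). Retinoid and xenobiotic metabolism had 12 of 18 genes called higher and 2 lower, with a median of 0.88 (6 higher without vector 2). PLAAT4 stood at 39.6 and 28.6 against 3.50 to 8.42 (2.47), and the receptor RARG at 26.9 and 25.4 against 7.93 to 11 (1.41). UGT1A6, which shares exons with its family, was higher by 1.81. ALDH1A3, which makes retinoic acid, was lower at 5.17 and 6.21 against 11.9 to 17.3 (-1.24). In the Notch pathway 5 of 14 genes were called higher and none lower, led by HES2 (1.47) and the modifying enzyme LFNG (1.34).

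**Figure D3:**
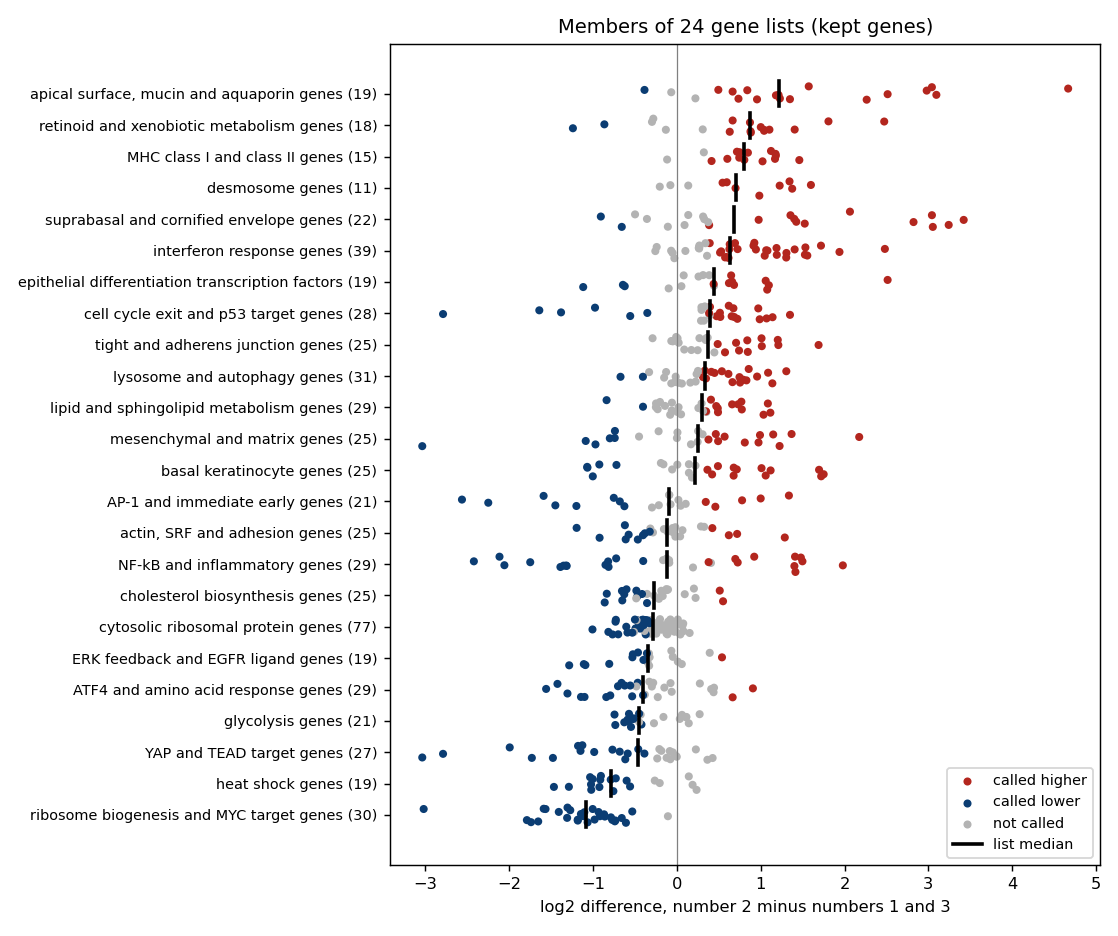
Difference in log2(FPKM + 1) of each kept member of 24 gene lists, number of kept members in parentheses, with red for called higher, blue for called lower and grey for not called. The black bar is the list median, from -1.08 for ribosome biogenesis to 1.21 for apical surface genes.

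Interferon response genes were higher without a called exception in the other direction. Of 39 kept, 27 were called higher and none lower, with a median of 0.63, and 13 were called higher without vector 2. DDX60, a helicase that aids the sensing of viral RNA, stood at 160 FPKM in vector 2 and 120 in overexpression 2, against 18.2 and 31.9 in vector 1 and 3 and 18.2 and 30.9 in overexpression 1 and 3 (2.48, SE 0.24, adjusted p = 0.000101). RSAD2, the antiviral enzyme viperin, stood at 58.8 and 59.8 against 9.38 to 20.6 (1.94), and PARP14 at 82.7 and 71.2 against 17.6 to 31.6 (1.72). The list also differed between the groups: its mean log2 level was 4.26 and 4.39 in vector 1 and 3, 4.72 and 4.99 in overexpression 1 and 3, 5.20 in vector 2 and 5.53 in overexpression 2.

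Antigen presentation genes stood with them, 13 of 15 called higher and none lower, with a median of 0.81 and 6 called without vector 2. HLA-F stood at 67.6 and 77.7 FPKM against 17.5 to 39.2 (1.46), and PSMB9, a subunit of the immunoproteasome, at 74.5 and 75.6 against 26.1 to 42.1 (1.18). The peptide transporter TAP1 (1.17), B2M (0.81) and the regulator NLRC5 (0.75) were called higher, B2M and NLRC5 not without vector 2 (adjusted p = 0.059 and 0.25). TNFSF10, the death ligand TRAIL, which interferons are known to induce, had the largest higher difference of the named genes after AQP3. It stood at 105 and 69.2 against 3.63, 9.38, 5.60 and 8.20 (3.55, SE 0.29, adjusted p = 5.61e-05). CFB, complement factor B, stood at 111 and 98.1 against 9.85 to 19.7 (2.70), and it shares exon bases with an annotated readthrough gene listed at 0.

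The promoter of DDX60 is shown as an example, because the interferon-stimulated response element, searched on both strands as TTTC, any 2 bases, TTTC, was the motif that set a list apart most. It occurred within 250 bases before the start in 19 of 31 interferon response promoters (61.3%) and 6 of 12 antigen presentation promoters, against 2.32% of the 9114 kept genes with a promoter in RefSeq (GRCh38.p14). Of called higher genes 2.99% held it, so most of the higher genes had no such letters in the window. The stretch printed is chr4:168318808-168319002, minus strand, from 250 to 56 bases before the RefSeq start, without bases of annotated exons. The capitals mark 1 of the 2 matches in the 250 bases, and it reads on the opposite strand.
DDX60: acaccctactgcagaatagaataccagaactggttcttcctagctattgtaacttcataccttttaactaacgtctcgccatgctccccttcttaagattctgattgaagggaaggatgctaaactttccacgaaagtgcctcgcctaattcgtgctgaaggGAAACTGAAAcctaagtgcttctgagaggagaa
A match of letters is a description and was not tested as a binding site.

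Other genes among those with the largest higher differences belonged to none of these groups. TNNT3, a troponin of fast skeletal muscle, stood at 20.8 and 17 FPKM against 0.58 to 1.27 (3.35, SE 0.18, adjusted p = 8.19e-06). VAV3, an exchange factor for small GTPases, stood at 19.7 and 11.7 against 0.32 to 1.51 (3.09), and SLC2A13, a transporter of myo-inositol, at 29.8 and 20.2 against 1.06 to 3.36 (3.08). PALM, a membrane-associated phosphoprotein, stood at 21.7 and 13.1 against 1.01 to 2.82 (2.78), and SELENOP, a secreted selenium carrier, at 20.9 and 13.4 against 0.96 to 3.47 (2.61). All 5 stood higher in vector 2 than in overexpression 2. Lysosomal and autophagy genes had 17 of 31 called higher and 2 lower, with a median of 0.34, and 6 and 9 called higher without vector 2 and without overexpression 2. The lysosomal protease CTSD stood at 406 and 419 against 136 to 189 (1.31, with 41.7% of its exon bases shared with another annotated gene) and the saposin precursor PSAP at 554 and 506 against 208 to 268 (1.09).

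Genes of ribosome biogenesis and MYC targets were the most uniform list in the lower direction. Of 30 kept, 29 were called lower and none higher, the median was -1.08, and 23 were called lower without vector 2. The exception was EIF4E, a cap-binding factor, at -0.11. ODC1, the rate-limiting enzyme of polyamine synthesis, stood at 8.67 FPKM in vector 2 and 17.8 in overexpression 2, against 125 and 97.9 in vector 1 and 3 and 117 and 94.6 in overexpression 1 and 3 (-3.02, SE 0.21, adjusted p = 2.92e-05). RRP9, of the ribosomal RNA processing complex, stood at 6.25 and 10.4 against 25.1 to 38.8 (-1.79), and RRP12 at 5.32 and 7.69 against 19.98 to 26.4 (-1.74). POLR1G, a subunit of RNA polymerase I whose exons overlap those of ERCC1, stood at 1.58 and 3.28 against 10.7 to 16.9 (-2.20). The libraries did not overlap for 29 of the 30 genes. MYC itself was not called (-0.29).

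**Figure D4:**
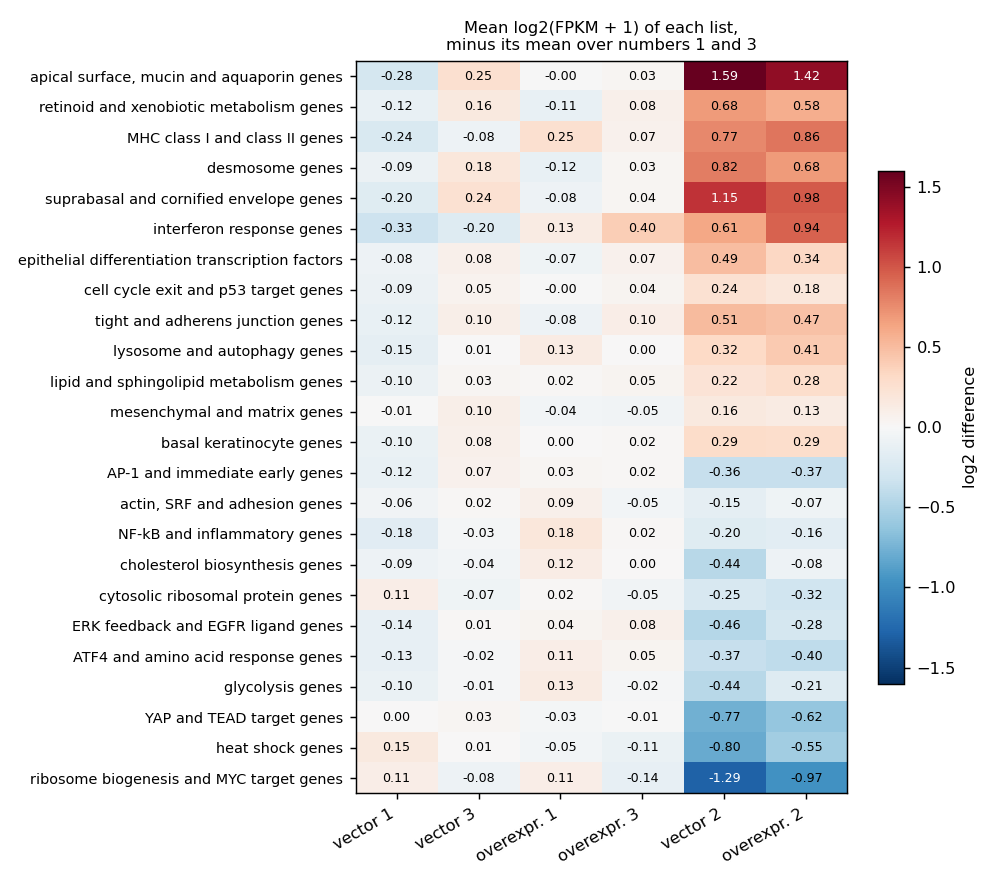
Mean log2(FPKM + 1) over the kept members of 24 lists in each library, minus the mean of the 4 libraries numbered 1 and 3. The number 2 libraries are the 2 columns at the right, from 1.59 and 1.42 for apical surface genes to -1.29 and -0.97 for ribosome biogenesis genes.

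SRM, spermidine synthase, acts directly after ODC1 and was lower by 1.56 on the log2 scale. Its promoter is shown for the E-box CACGTG, the letters that MYC family factors are known to bind, and it was chosen after its value and match were seen. The E-box lay in 13.3% of promoters of genes called at least 2-fold lower, 5.52% of those called at least 2-fold higher and 9.10% of all kept, and in 4 of 25 ribosome biogenesis promoters. The stretch is chr1:11060025-11060268, minus strand, GRCh38.p14, from 250 to 7 bases before the RefSeq start, with the E-box in capitals.
SRM: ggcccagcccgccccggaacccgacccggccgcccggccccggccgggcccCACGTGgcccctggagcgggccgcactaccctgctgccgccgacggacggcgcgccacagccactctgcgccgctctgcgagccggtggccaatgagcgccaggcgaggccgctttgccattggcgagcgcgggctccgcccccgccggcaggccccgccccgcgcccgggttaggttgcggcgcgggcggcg
The window holds 1 match to these letters.

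Further lists of growth and protein supply were lower. Cytosolic ribosomal protein genes had 27 of 77 called lower and none higher, with a median of -0.28. This list was the least stable, with 9 called lower under quantile normalization, 41 with the replicate block, 16 without vector 1, 1 without vector 2 and 5 without overexpression 2. RPL6 was the member with the largest difference, 388 and 471 FPKM against 762 to 961 (-1.0). Heat shock genes had 14 of 19 called lower and none higher, with a median of -0.79, and 5 called without vector 2. HSPA8, the constitutive chaperone, stood at 162 and 261 FPKM against 491 to 650 (-1.46, SE 0.18, adjusted p = 0.00033), HSPE1, the mitochondrial cochaperonin, at 56.7 and 65.6 against 124 to 199 (-1.29), and HSP90AA1 at 302 and 379 against 608 to 796 (-1.03). Genes of the unfolded protein response of the endoplasmic reticulum were mostly not called, 2 of 22 being higher and 2 lower.

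ATF4 targets and amino acid supply had 14 of 29 called lower and 2 higher, with a median of -0.40 and 8 called lower without overexpression 2. ATF5, a factor of this pathway that overlaps NUP62, stood at 4.66 and 5.10 FPKM against 12.1 to 23.0 (-1.56), CHAC1, which degrades glutathione, at 1.65 and 1.71 against 5.05 to 6.39 (-1.30), and STC2, a secreted glycoprotein, at 15.5 and 13.8 against 36.4 to 43.9 (-1.42). The transporter subunit SLC3A2 (-1.1) and the serine enzyme PSAT1 (-1.14) were lower too. Glycolysis genes had 11 of 21 called lower and none higher, with a median of -0.45. None was called without vector 2 and 7 without overexpression 2. ENO1 stood at 897 and 1120 against 1568 to 1826 (-0.74), LDHA at 588 and 710 against 990 to 1143 (-0.73) and PGK1 at 161 and 229 against 270 to 331 (-0.63). Cholesterol synthesis had 10 of 25 called lower and 2 higher, with a median of -0.27 and none called lower without vector 2, with HMGCS1 at 159 and 240 against 315 to 403 (-0.83). Of 23 hypoxia targets 3 were called higher and 4 lower, beside 23.7% and 16.8% of all kept genes. Their relation to the glycolytic genes was not tested.

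Targets of YAP and TEAD, the pair of factors that respond to cell density and stiffness, had 15 of 27 called lower and none higher, with a median of -0.46 and 9 called without vector 2. GADD45A, a stress protein that is also in the p53 list, stood at 23.2 and 24.1 FPKM against 129 to 217 (-2.79, SE 0.15, adjusted p = 8.19e-06). ANKRD1 stood at 6.09 and 10.1 against 30.9 to 41.5 (-1.99), and CCN1 (-1.73), FJX1 (-1.48), AXL (-1.15) and CCN2 (-1.13) were called lower, CCN2 not without vector 2 (adjusted p = 0.057). Genes of actin and adhesion had 9 of 25 called lower and 4 higher, with a median of -0.11. Without vector 2, 1 was called lower, and without overexpression 2, 5 were. ACTG1, cytoplasmic gamma actin, stood at 292 and 257 against 594 to 674 (-1.19), while ACTA2, smooth muscle actin, stood at 7.24 and 8.02 against 1.39 to 3.84 (1.29).

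Immediate early genes divided by member. Of 21 kept, 8 were called lower and 5 higher, with a median of -0.09. FOSL1, the FRA1 subunit of AP-1, stood at 16.1 FPKM in vector 2 and 25.7 in overexpression 2, against 125 and 117 in vector 1 and 3 and 150 and 111 in overexpression 1 and 3 (-2.56, SE 0.16, adjusted p = 1.78e-05). JUN stood at 11.6 and 15.9 against 60.3 to 73.7 (-2.25), EGR1 at 1.61 and 1.19 against 5.69 to 7.07 (-1.59), and IER3 was lower by 1.45. In the other direction FOSL2 stood at 39.4 and 32.6 against 14.8 to 19.4 (1.0), JUNB at 167 and 154 against 72.2 to 104 (0.78, not called without vector 2), and the antiproliferative BTG2 at 16 and 14.6 against 5.05 to 5.78 (1.34). The AP-1 family members thus differed in direction among themselves.

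Ligands and feedback genes of the EGFR and ERK pathway had 9 of 19 called lower and 1 higher, with a median of -0.35, and 4 and 3 called lower without vector 2 and without overexpression 2. The ligand AREG stood at 6.22 and 8.55 FPKM against 14.7 to 20.7 (-1.11), the ERK phosphatase DUSP4 at 4.96 and 6.11 against 11.9 to 14.9 (-1.09), and PHLDA1 at 5.61 and 7.19 against 13 to 20.2 (-1.28). In the plasminogen and clotting list, 6 of 14 were called lower and 4 higher. Tissue factor F3 stood at 126 and 175 against 299 to 360 (-1.18). Urokinase itself, PLAU, stood at 62.0 and 51.4 against 24.8 to 31.8 (0.95), and the clearance receptor LRP1 at 29 and 20.6 against 2.88 to 7.0 (2.25). The protease was thus higher and its inhibitor SERPINB2 lower.

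NF-kB and inflammatory genes went in both directions. Of 29 kept, 13 were called lower and 10 higher, with a median of -0.12. IL6 stood at 10.9 and 15.2 FPKM against 52.5 to 60.9 (-2.05, SE 0.12, adjusted p = 1.23e-05), CSF2, the growth factor GM-CSF, at 6.03 and 9.20 against 29.4 to 42.9 (-2.11), and PTGS2, the inducible cyclooxygenase, at 3.74 and 4.65 against 22.8 to 32.7 (-2.42). IL1A (-1.75), CXCL2 (-1.39), CXCL8 (-1.31) and the feedback gene TNFAIP3 (-1.32) were also lower. The acute phase gene SAA2, whose copy SAA1 can share its reads, stood at 9.76 and 6.95 against 1.04 to 1.82 (1.98), TNFAIP2 at 66.9 and 51.1 against 15.6 to 22.2 (1.5) and the apoptosis inhibitor BIRC3 at 25 and 22.3 against 6.01 to 10.5 (1.48). SOD2 (1.42), CCL5 (1.41) and NFKBIA (0.92) were higher as well, SOD2 not being called without vector 2 (adjusted p = 0.069).

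INHBA, a subunit of activin, stood at 0.50 and 1.42 FPKM against 10.7, 10.9, 19.9 and 15.9 in vector 1, vector 3, overexpression 1 and overexpression 3 (-2.97, SE 0.13, adjusted p = 8.19e-06). ESM1, a secreted proteoglycan, stood at 0.05 and 0.42 against 6.19 to 10.1 (-2.83), and SCG5, a chaperone of a secretory convertase, at 0.58 and 1.73 against 9.14 to 26.0 (-2.86). Of the WNT list, and outside the 15 largest, DKK1, a secreted inhibitor, stood at 33.9 and 54.7 against 161 to 179 (-1.95). G0S2, an inhibitor of lipolysis, stood at 7.12 and 13.6 against 49.9 to 97.8 (-2.59). The chemokine genes CCL3 (-2.53) and CCL3L3 (-2.39) and the gonadotropin subunit CGB8 (-2.32) were among the 15 largest lower differences, as were the genes above other than DKK1, and each has near-identical copies that can share reads. Overexpression 2 lay above vector 2 for all these genes.

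The promoters of SERPINB2 and THBS1 are shown because these genes marked the lower side. The AP-1 letters TGANTCA lay in 8.51% of promoters of genes called at least 2-fold lower, 5.52% of those at least 2-fold higher and 3.64% of all kept. Over all called genes the shares hardly differed by direction, 4.17% of those lower and 4.08% of those higher. These letters lay in 4 of 8 SERPINB promoters and 5 of 11 of the plasminogen list. They also lay in 3 of 11 promoters of apical surface genes, 3 of 14 of suprabasal genes and 0 of 16 of immediate early genes. The TEAD letters GGAATG lay in 6 of 18 promoters of YAP and TEAD targets, 4 of 11 of apical surface genes and 9.21% of all kept. The SERPINB2 stretch is chr18:63887455-63887699, plus strand, from 250 to 6 bases before the RefSeq start, which lies inside the gene span of GENCODE 29, with the AP-1 match in capitals. The THBS1 stretch is chr15:39580829-39581078, plus strand, the 250 bases before the start, with the TEAD match in capitals, and both are of GRCh38.p14.
SERPINB2: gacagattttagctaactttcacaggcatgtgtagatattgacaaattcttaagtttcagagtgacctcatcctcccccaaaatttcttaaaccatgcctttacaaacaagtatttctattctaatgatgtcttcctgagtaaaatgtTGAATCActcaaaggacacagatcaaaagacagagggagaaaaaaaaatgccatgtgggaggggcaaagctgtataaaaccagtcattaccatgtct
THBS1: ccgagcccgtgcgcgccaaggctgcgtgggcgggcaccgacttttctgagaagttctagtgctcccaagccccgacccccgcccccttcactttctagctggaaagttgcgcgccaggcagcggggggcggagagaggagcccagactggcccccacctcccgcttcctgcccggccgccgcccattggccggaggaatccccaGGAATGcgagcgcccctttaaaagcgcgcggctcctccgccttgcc
KRT13, LY6D and FOSL1 have no promoter here.

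Cell cycle genes did not shift as lists. Of 41 genes of G1/S and replication, 4 were called higher and 6 lower, and of 42 genes of G2/M and mitosis, 7 were higher and 3 lower, all below the shares of the kept genes as a whole. CDC25B, a mitotic phosphatase, stood at 106 and 85.7 FPKM against 38.1 to 53.8 (1.01), and CDC20, an activator of the anaphase complex, at 57.0 and 68.5 against 108 to 137 (-0.97). MKI67 was not called (0.22). Genes of cell cycle exit and p53 targets had 15 of 28 called higher and 6 lower, with a median of 0.39 and 5 called higher without vector 2. DDB2, a damage-binding p53 target, stood at 40.0 and 36.4 against 13.1 to 15.5 (1.35), and the kinase inhibitor CDKN1C at 36.7 and 37.2 against 12.2 to 19.8 (1.14). CCND1, cyclin D1, stood at 22.1 and 27.9 against 48.4 to 52.0 (-0.97). TXNIP, an arrestin that responds to glucose, stood at 24.4 and 42.9 against 80.3 to 125 (-1.64), or -1.06 without vector 2.

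Matrix and mesenchymal genes went in both directions, 11 of 25 called higher and 6 lower, with a median of 0.25, and 5 and 7 called higher without vector 2 and without overexpression 2. LOXL4, a crosslinker of collagen, stood at 10.6 and 7.40 FPKM against 0.81 to 1.48 (2.18), COL6A1 at 41.8 and 38.2 against 12 to 18.2 (1.37), and COL1A1 at 11.1 and 8.67 against 2.95 to 4.57 (1.15). Vimentin, VIM, stood at 148 and 163 against 281 to 343 (-0.97), and SNAI2, a repressor of epithelial junction genes, at 32.2 and 25.6 against 47.2 to 81.9 (-1.09). Collagen genes of the list that were not kept include COL1A2, listed at 0, and COL5A2, at 0.21 and 0.23 against 0.27 to 0.65. Of 22 TGF-beta targets 4 were called higher and 5 lower, near the 23.7% and 16.8% of all kept genes. PMEPA1 was lower at 4.04 and 5.17 against 15.3 to 21.4 (-1.74).

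Of the remaining lists, lipid and sphingolipid genes had 12 of 29 called higher and 2 lower, with a median of 0.30, and 4 and 5 called higher without vector 2 and without overexpression 2. The fatty acid activating enzymes ACSL1 (1.12) and ACSL5 (1.09) were called higher and the elongase ELOVL1 (-0.84) lower. NRF2 targets had 6 of 22 called higher and 5 lower, near the 23.7% and 16.8% of all kept genes. The reductase AKR1C3 (1.52) was higher and heme oxygenase HMOX1 (-0.93) lower. HMOX1 was not called without vector 2 (-0.99) or without overexpression 2 (-0.86). The WNT list had 4 of 16 called higher, also near the share of all kept genes, and 1 lower. The ligand WNT10A (1.34) was among those higher. Of 39 nuclear genes of the respiratory chain 2 were higher and 5 lower, and of 13 mitochondrially encoded mRNAs 2 were higher and 2 lower. Of 17 histone genes that depend on replication, many of them near-identical, 1 was higher and 6 lower. RNAs that are retained in the nucleus or prone to stay unspliced, a sign of RNA quality or of how RNA was taken, had 4 of 12 called higher and none lower, with a median of 0.27. Their mean log2 level was 5.26 in each number 2 library and 4.80 to 5.07 in the 4 others, and the part of this in the other results was not tested.

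Because the filter needs 3 libraries, it left out genes on in the number 2 libraries alone. At FPKM of at least 1 in both of them and below 1 in all 4 others were 508 loci, 314 of them Ensembl genes, while 79 loci showed the reverse and could still be kept. The genes named here were chosen after their values were seen. GBP2, a GTPase induced by interferon, stood at 16.1 and 9.84 FPKM and at most at 0.74 elsewhere, and CLCA2, a regulator of chloride conductance in squamous epithelium, at 13.7 and 8.6 and at most at 0.89. TJP3, a tight junction scaffold, stood at 12.7 and 6.54, the protease TMPRSS4 at 5.41 and 5.62, SERPINB4 at 6.97 and 3.67, and ALDH3A1, an aldehyde dehydrogenase of mucosal and corneal epithelium, at 4.50 and 2.34. S100A9, a subunit of calprotectin, stood at 2.14 and 2.34 and was listed at 0 in all 4 others. With genes kept that reach 1 FPKM in 2 or more libraries, an alternative chosen after the data were seen, 5409 of 12778 genes were called and 61.7% of the calls were higher.

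The 2 remaining numbers were not alike. Among genes called higher in number 2, library 3 stood above library 1 in both groups for 58.2%, against 36.7% of all kept genes. Of genes called lower, 55.3% stood lower in 3 than in 1 in both groups, against 26.4%. This comparison is separate from the contrast, which averages the 2 numbers. For genes called at least 2-fold higher the median of 3 minus 1 was 0.40 in vector and 0.19 in overexpression. The number 3 libraries therefore lay slightly nearer to number 2 for most of the genes called higher, at a small part of the distance.

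**Figure D5:**
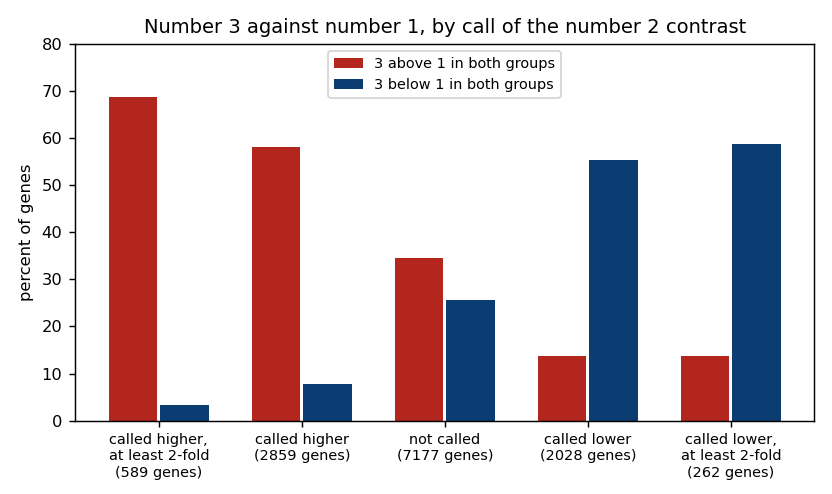
Percent of genes for which the number 3 library stood above (red) or below (blue) the number 1 library in both vector and overexpression, by the call in the number 2 contrast, with the number of genes under each pair of bars. Red exceeds blue among genes called higher (58.2% against 7.76%), and blue exceeds red among those called lower (55.3% against 13.7%).

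Length and level of expression moved with the difference. Across 11166 genes Spearman's correlation, a description across genes, was -0.01 for GC content and 0.20 for length. The median difference was -0.09 in the shortest quintile and 0.19 in the longest. By level it was 0.23 in the quintile of genes with the lowest mean FPKM and -0.17 in that with the highest. The share of genes called lower was 6.96% in the quintile of lowest level and 31.7% in that of highest level, and 26.5% in the shortest and 8.78% in the longest quintile. Shares called higher were 27.1% and 15.3% by level and 18.6% and 28.8% by length. The 27 of 77 ribosomal protein genes called lower are to be read beside the share of 31.7%. The part of length and level in the results above was not tested beyond the correction for GC content and length, after which 5146 of 11166 genes were called.

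Markers of other cells were looked at in the same libraries. Of 12 fibroblast markers, 10 were below 1 FPKM in every library and COL1A2 and PDGFRA were listed at 0, while the summed level was 31.5 to 31.7 FPKM in the number 2 libraries and 17.9 to 20.3 in the others, mostly PDPN and COL1A1. Of 16 leukocyte markers, 13 were below 1 in every library, and PTPRC, CD3D and TYROBP were listed at 0. Of 10 endothelial markers 9 were below 1. Myoepithelial markers, the partner cell type of salivary glands, summed to 458 to 536 FPKM in the number 2 libraries against 158 to 212 in the others, of which KRT5, KRT14, ACTA2 and TP63 are described above. KRT5 alone held 412 and 347 FPKM of the sums in vector 2 and overexpression 2. Of the 11 markers, 4 were below 1 in every library: CNN1, MYH11, OXTR and ACTG2. Of 25 salivary acinar and duct markers 22 were below 1 in every library, and amylases, AQP5, PIP and KIT were listed at 0. Their sum, 241 to 311 FPKM in the number 2 libraries and 435 to 686 in the others, was mostly KRT7. Of 15 adenoid cystic carcinoma markers 8 were below 1 in every library, KIT, SOX11 and SOX8 were listed at 0, and of 7 kept 1 was called higher (TP63) and 3 lower (MYBL1, CCND1 and SOX4, the last at -0.56 and not called in 8 of the alternatives). Of the 25 acinar and duct markers 2 were thus kept, KRT7 among them, and of the 11 markers shared with myoepithelial cells 7 were kept. In bulk samples, more cells of a type and more RNA per cell cannot be told apart.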

How the data were processed

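The 6 libraries of SACC-83 cells were grouped by their titles (3 vector, 3 overexpression). The deposited values are FPKM per gene, computed by the authors. Per the submitters' processing notes, HISAT2 and GRCh38 were used, and the counting tool is not given in the sources used here. Per the labels' protocols, RNA was taken with TRIzol and libraries were made with an NEBNext Ultra kit. FPKM is relative to the library total, so a shift in abundant genes moves the others. No whole-read steps could be recovered (at most 3 of 2670 low genes shared 1 ratio), and depth is unknown. Of 27328 loci, 4173 were listed at 0 throughout. The 19974 Ensembl identifiers matched GENCODE 29.

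Genes reaching 1 FPKM in 3 or more libraries were kept. The model for log2(FPKM + 1) came from limma 3.58.1, run under R 4.3.3 (group and number 2 as terms, eBayes with a trend, 3 residual degrees of freedom, Benjamini-Hochberg over 12064 genes), tested on simulated data. The text names the 5 marker genes, the 15 largest differences in each direction (Ensembl, called, mean FPKM of at least 5, libraries not overlapping) and up to 3 in each direction per list, with further list members by their difference only. The contrast, the 46 lists and the named genes were chosen with earlier results of these data known. Promoters are from RefSeq (9114 of 11166 kept Ensembl genes matched). Other pseudocounts, filters, scalings, covariates, a replicate block, a GC and length correction and leaving out each library were tried. Some genes that the rule names are not reported here.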

Additional observations from a re-analysis of the deposited data

Results flagged for a closer look

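SERPINB2 was the 1 of 30 genes tested (the marker genes and the largest differences) for which 1 of the 4 libraries numbered 1 and 3 stood apart from the rest by Dixon's criterion. Vector 1, at 311 FPKM, lay above the other three, at 284 to 286, and its gap to the nearest was 0.893 of the range, above the 95% critical value for 4 libraries. Chance alone passes this criterion in about 1 in 20 groups. The whole range, 284 to 311, is small beside the 17.4 and 31.4 FPKM of the number 2 libraries.

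A locus without an Ensembl name or position, newGene_7073, was the 1 called in the test of whether the number 2 difference is the same in both groups. It stood at 14.1, 27.3 and 16.7 FPKM in vector 1, 2 and 3 and at 0.0473, 16.1 and 0 in overexpression 1, 2 and 3. The difference was larger by 3.27 on the log2 scale in overexpression than in vector (limma adjusted p = 0.0019).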

How the results depend on the processing

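Apart from KLK9 and F3, which were not included, all 158 named genes that were called kept their direction under every alternative run (2982 values). Of these values 2930 kept the call. Of the 52 lost calls, 22 came without vector 2, where overexpression 2 is the lone number 2 library and is assumed to vary like the rest, and 7 without overexpression 2. With each replicate number as a block of its own, so that numbers 1 and 3 may differ, 6073 genes were called, 41 of them ribosomal protein genes. The replicate block changed no other count given here by over 1.5 times. Genes with a mean FPKM of at least 5 gave 1821 called higher and 7 retinoid genes, from fewer genes tested. A pseudocount of 0.1 gave 1343 called genes of at least 2-fold. Without the filter on low values, 9 genes of cell cycle exit and p53 were called higher, and 14 ribosomal protein and 3 actin genes lower. Quantile normalization left 9 ribosomal protein genes. The test of the difference between groups called 299 loci without the filter and 0 with the GC and length correction, which leaves out unnamed loci, and 2 to 23 with 1 library left out. Where not given, the cause was not tested. The share of calls in the higher direction, 58.5%, was 65.8% as TPM, 50% with TMM factors, 47.5% under quantile normalization, 49.8% after the GC and length correction, 50.6% at a mean FPKM of at least 5 and 68.6% without the filter.

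Leaving out 1 library at a time gave 1255 to 5299 called genes, 798 to 2985 higher and 457 to 2314 lower. Counts called higher ranged from 10 to 16 for apical surface genes, 6 to 12 for basal genes, 4 to 10 for transcription factors, 5 to 8 for desmosomes, 6 to 12 for junctions, 6 to 13 for retinoid metabolism, 13 to 28 for interferon response and 6 to 13 for antigen presentation. They ranged from 6 to 16 for lysosomes, 5 to 15 for cell cycle exit and p53, 5 to 13 for matrix and 4 to 13 for lipid metabolism. Counts called lower ranged from 9 to 15 for YAP and TEAD targets, 3 to 11 for ERK feedback, 1 to 35 for ribosomal proteins, 5 to 15 for heat shock, 0 to 14 for glycolysis, 8 to 15 for ATF4 targets, 0 to 13 for cholesterol synthesis and 1 to 10 for actin. Depth is unknown, so genes at low FPKM carry an error that cannot be stated.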
